A study of Mus musculus with 6 samples.

Results

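Oxidative phosphorylation is the last step of respiration: electrons from nutrients pass through complexes I to IV in the inner mitochondrial membrane, protons are pumped as they pass, and complex V uses the returning protons to make ATP. Each complex is built from several subunits, and a few of these exist in alternative forms encoded by paralogous genes, one used widely and the other mainly in tissues such as heart, skeletal muscle or lung. Regulatory T cells (Tregs), T cells that express Foxp3 and hold other immune cells in check, are known to lean on this pathway more than activated conventional T cells do. The genes described here were chosen by symbol: names starting with Nduf, Sdha to Sdhd, Uqcr or Atp5, and Cox followed by a digit of a nuclear-encoded subunit and a letter. This rule found 96 of the 24424 genes in the table of read counts: 43 of complex I, 8 of complex II, 8 of complex III, 20 of complex IV and 17 of complex V. It also takes in genes that are not subunits, such as the Ndufaf and Sdhaf assembly factors, and 74 of the 96 encode structural subunits of the widely used enzyme. Subunits encoded by the mitochondrial genome are not among the rows analysed here.

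RNA sequencing libraries had been made from Tregs sorted from mouse spleen and peripheral lymph nodes, in 3 groups of 2. Wild type (WT) libraries at steady state carry the strain label Bcl11bF/F, in which both copies of Bcl11b, a transcription factor of T cells, are floxed and no Cre is named. Knockout (KO) libraries at steady state and KO libraries from experimental autoimmune encephalomyelitis (KO EAE), a mouse model of multiple sclerosis, carry the strain label Bcl11bF/WT Foxp3YFP-Cre +/-, with Cre driven by the Treg gene Foxp3 and 1 floxed allele, while the genotype label reads KO. No WT EAE group was analysed here, and age, sex and whether replicates came from separate animals are not given in the labels, so p-values cover only how these libraries spread within a group, which may be technical in origin. Libraries held 14663542 to 16904312 reads. Expression is given as CPM, reads of a gene scaled to an equal library total after TMM adjustment, and the limit of 3 reads was 0.177 to 0.205 CPM, for counting error only. A second table, of normalized signal, covers libraries of the same WT and KO names.

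Bcl11b itself, measured over the whole gene, stood at 419.9 and 424.6 CPM in the libraries labelled WT, 371 and 370 in those labelled KO, and 404 and 278 in those labelled KO EAE (log2 change KO against WT -0.19 ± 0.17 (SE), adjusted p = 0.527). In the normalized table the change was -0.88 ± 0.14 (adjusted p = 0.065). Which part of the gene had been deleted is not given in the labels, so this gene total is a weak check of them, and each direction below rests on the group labels. Foxp3 was present in every library, at 149 to 211 CPM. Of 7 Treg markers 4 fell in KO. Foxp3, Il2ra, Ctla4 and Ikzf2 were lower in both KO libraries than in both WT libraries. The groups overlapped for Cd4 (291 and 288 CPM in WT, 278 and 315 in KO), Cd3e and Cd3g. The summed level of all 7 was 1787 to 1856 CPM in WT, 1311 to 1345 in KO and 1309 to 1425 in KO EAE. Of 10 macrophage and monocyte markers 9 rose in KO, with sums of 206 to 238, 1545 to 1910 and 1386 to 1620 CPM in the same order. These are bulk samples, in which fewer cells of a type and less RNA per cell cannot be told apart.

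The promoters of the genes are shown first, because most subunit genes are regarded as sharing regulators such as nuclear respiratory factor 1 (NRF1), ETS factors of the GABP kind and YY1. RefSeq windows of GRCm38.p6, running from 250 bases before to 50 after the start, were found for 80 of the 96 genes (86 windows). On either strand, the NRF1 motif (GCGCA and GCGC with any base between) was in 25.6% of the windows, CCGGAAG (ETS) in 23.3% and AAGATGGC (YY1) in 13.95%, against 4.60%, 8.86% and 2.75% of all 32851 windows of this length. At least 1 of the 3 was in 54.7% of the windows and in 14.7% of all windows. The member windows also held more G and C, with a median of 57.0% in the upstream part against 52.4%. Complex II stood at one end, with a match in 7 of 7 windows, and complex IV at the other, with 3 of 14. These sets differ in make-up: complex II includes windows of the 4 Sdhaf assembly factors. Complex IV includes 4 windows of tissue-restricted isoforms, of which 0 had a match. The upstream bases of 3 complex IV genes are printed, 5′ to 3′ on the gene's strand, because one of them carries both kinds of match and the others are a pair of paralogues whose levels parted in KO. They lie at chr5:115348959-115349208 for Cox6a1, chr9:79759854-79760103 for Cox7a2 and chr17:83514334-83514583 for Cox7a2l, each on the minus strand. The Cox7a2l window lies inside the GENCODE M21 span of that gene (chr17:83501918-83517330), so it belongs to a start other than the outermost one. Capitals mark a motif match.
Cox6a1: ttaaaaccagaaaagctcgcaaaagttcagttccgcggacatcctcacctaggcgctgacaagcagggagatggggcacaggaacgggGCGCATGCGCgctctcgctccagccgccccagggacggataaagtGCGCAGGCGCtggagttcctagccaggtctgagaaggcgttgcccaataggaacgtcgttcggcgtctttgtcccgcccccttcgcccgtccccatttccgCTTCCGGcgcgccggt
Cox7a2: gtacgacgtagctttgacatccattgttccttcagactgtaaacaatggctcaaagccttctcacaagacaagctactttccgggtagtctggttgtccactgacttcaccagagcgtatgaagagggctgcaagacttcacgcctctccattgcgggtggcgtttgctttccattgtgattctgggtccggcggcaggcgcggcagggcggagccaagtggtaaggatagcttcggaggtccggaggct
Cox7a2l: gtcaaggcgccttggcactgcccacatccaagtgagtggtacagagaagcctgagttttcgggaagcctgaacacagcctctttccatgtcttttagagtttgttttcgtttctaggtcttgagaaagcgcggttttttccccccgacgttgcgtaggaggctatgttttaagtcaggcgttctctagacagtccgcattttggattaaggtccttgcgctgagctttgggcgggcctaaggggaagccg
Cox6a1 holds 2 NRF1 matches and 1 ETS match, and the Cox7a2 and Cox7a2l windows hold none, which says only that these letters are not there. Neither Cox6a2 nor Cox4i2 had an entry.

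Summed over all members, the count table held 4953 and 4856 CPM in WT, 4664 and 5190 in KO and 4848 and 4996 in KO EAE, so the 2 KO libraries lay on either side of the other 4. The complex IV genes summed to 678 and 653 CPM in WT, 756 and 883 in KO and 677 and 698 in KO EAE. Most of this difference lay in Cox7a2l, at 114 and 116 CPM in WT, 237 and 297 in KO and 109.9 and 108 in KO EAE. Atp5g2, at 48.9 CPM in KO 1 and 142 in KO 2, also enters the sum over all members. In the reads recovered from the normalized table all members summed to 9062 and 8552 CPM in the WT pair, and to 10447 and 10082 CPM in the KO pair, without overlap. Levels per kilobase are those of the count table, divided by all annotated exon bases, which can exceed the transcript present. By this measure the leader of complex I was Ndufb11 (a membrane arm subunit) at a mean of 62.7 CPM per kilobase over the 6 libraries. The leaders of the other complexes were Sdhd (a membrane anchor of complex II) at 56.6, Uqcrfs1 (the Rieske iron-sulfur protein of complex III) at 58.0, Cox7a2l at 111 and Atp5a1 (the alpha subunit of complex V) at 74.0. The lead of Cox7a2l rests on the KO libraries: in WT, Cox7c stood at 99.5 CPM per kilobase and Cox7a2l at 77.9. Among the lowest were Sdhaf3, an assembly factor of complex II, at 0.927 CPM per kilobase, and the tissue-restricted forms Cox6b2, Cox4i2 and Cox7a1 of complex IV, at 1.151, 1.46 and 2.10. The order differed in the recovered reads, where Cox6a1 averaged 176 CPM over 0.702 kilobases of exon and Cox7a2l 62.4 CPM over 1.478. Of the 96 genes, 5 did not pass the filter on low counts. Ndufs5, an accessory subunit of complex I with 1 near-identical copy in the annotation, had no read in any library, and Cox7b2, Cox8b, Cox8c and Ndufa4l2 had at most 3 reads in any library.

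**Figure D1:**
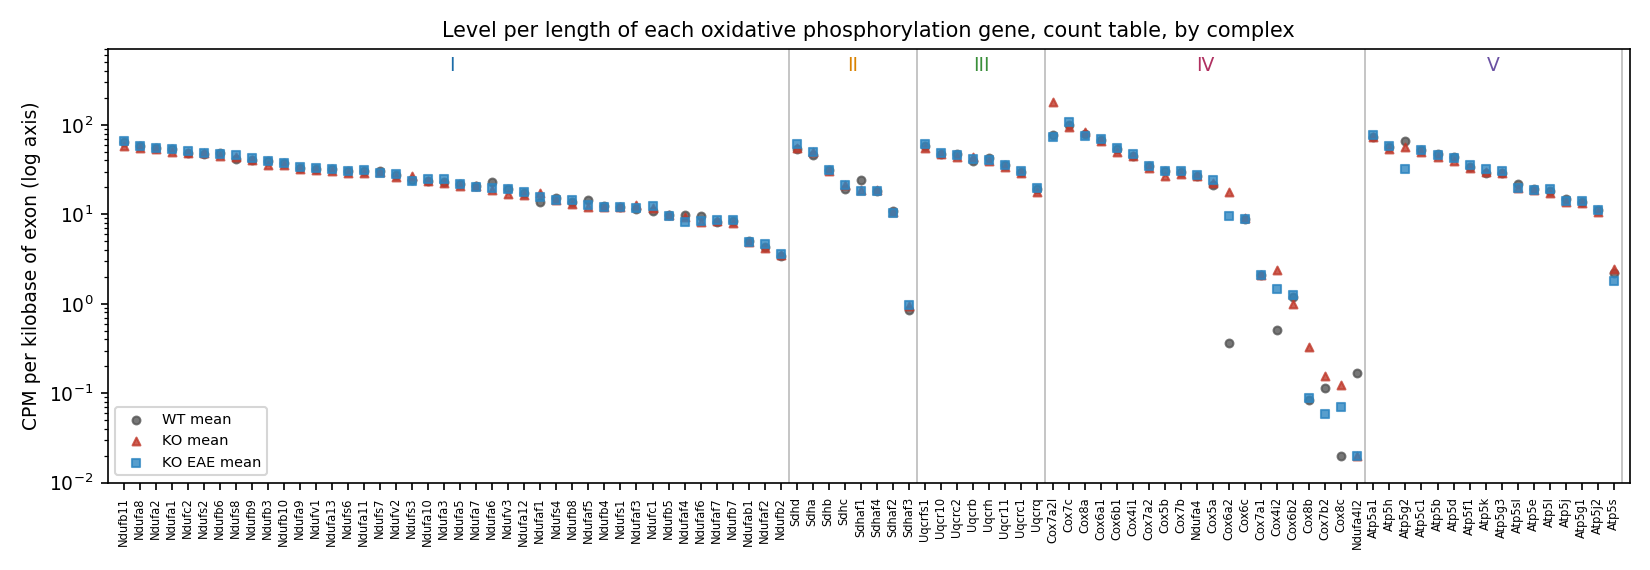
Mean level per kilobase of exon (log axis) of each gene in WT, KO and KO EAE (n = 2 libraries each), grouped by complex and ordered by the mean over all libraries; a mean of 0 is drawn just above the lower edge. The symbols of the 3 groups lie on each other for most genes and part for Cox7a2l, Cox6a2, Cox4i2 and Atp5g2, among others.

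In KO against WT, 3 of the 91 genes tested rose and none fell (edgeR's quasi-likelihood test, adjusted over all genes), where 12.9% of all 14548 genes were called, 9.41% as higher and 3.46% as lower. DESeq2 called the same 3, beside 16.8% of all genes, and 4 had an unadjusted p under 0.05. All 3 were genes of complex IV: Cox6a2, Cox4i2 and Cox7a2l. Of these, Cox6a2 and Cox4i2 passed the filter on low counts only through libraries other than WT, so they could be called only as higher. The median log2 change over the 91 genes was -0.04, beside -0.01 over all genes, with 28 above 0 and 63 below. Scaling by library totals alone moved both medians up, to 0.02 for the members and 0.05 for all genes. Changes of less than 0.25 on the log2 scale were measured for 83 of the 91. Of the 73 tested structural subunits of the widely used enzyme edgeR and DESeq2 called none and none had an unadjusted p under 0.05. Their changes ran from -0.30 to 0.18. The groups did not overlap for 11 genes that were higher and 18 that were lower in KO, beside 32.7% and 32.5% of all genes (65.2% in either direction).

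**Figure D2:**
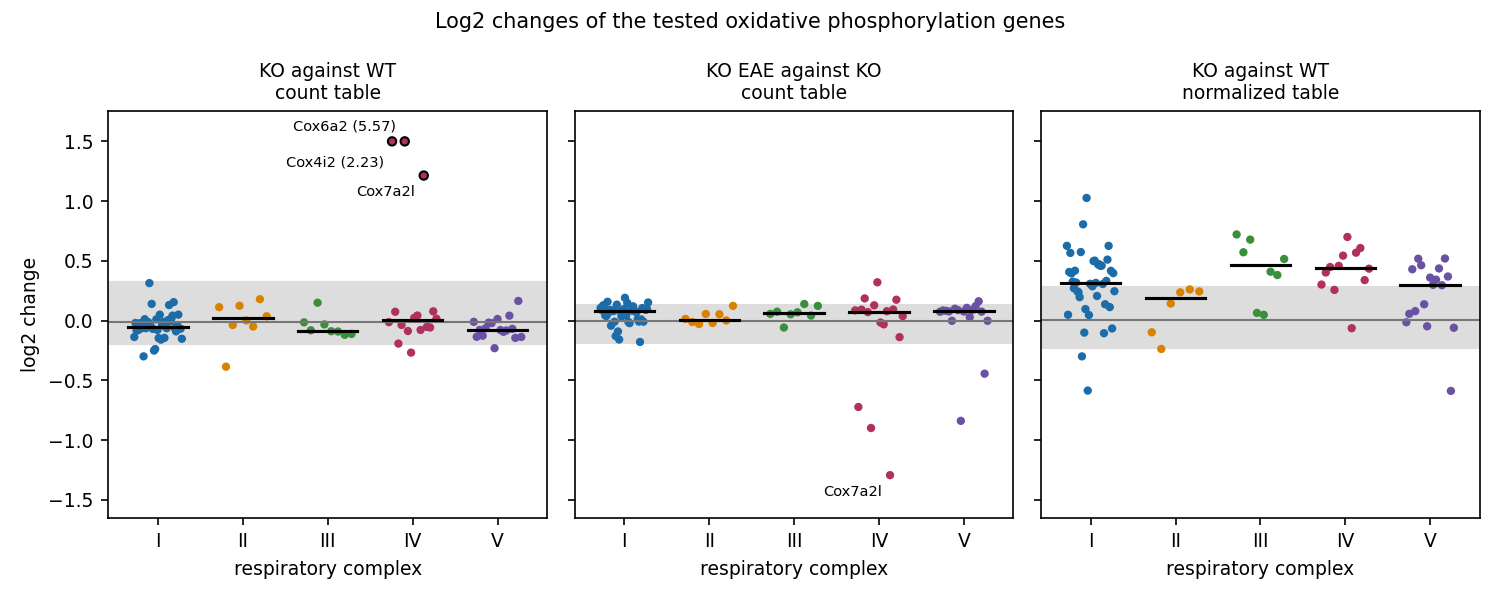
Log2 change of each tested gene by complex for KO against WT and KO EAE against KO in the count table and KO against WT in the normalized table; black bars are complex medians, the grey line and band are the median and the middle 50% of all genes, black outlines mark an adjusted p under 0.05, and values above 1.5 are drawn at 1.5 with the value written. In the count table most genes sit close to 0, apart from Cox6a2, Cox7a2l and Cox4i2 of complex IV and, in KO EAE against KO, Atp5g2 of complex V at -0.84. In the normalized table most lie above 0 and none was called.

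Cox6a2, the form of subunit VIa used in heart and skeletal muscle, was close to the detection limit in WT and well above it in KO. Its level was 0.313 and 0.184 CPM in WT (5 and 3 reads), 10.2 and 14.1 CPM in KO (180 and 207 reads) and 7.52 and 5.53 CPM in KO EAE (117 and 86 reads). Every KO and KO EAE library was above both WT libraries. The log2 change was 5.57 ± 0.43 for KO against WT (adjusted p = 0.000547), and the reads alone give a ratio of 50.6 with an exact 95% counting interval of 25.4 to 118. Its widely used partner Cox6a1 stood at 49.1, 45.4, 43.6, 48.6, 47.8 and 49.0 CPM in WT 1, WT 2, KO 1, KO 2, KO EAE 1 and KO EAE 2 (log2 change KO against WT -0.04 ± 0.10, adjusted p = 0.835). Of the reads of both genes, Cox6a2 thus held 0.633% (95% Wilson interval 0.271 to 1.47) and 0.403% (0.137 to 1.18) in WT, 19.0% (16.6 to 21.6) and 22.5% (19.9 to 25.3) in KO, and 13.6% (11.5 to 16.04) and 10.1% (8.28 to 12.3) in KO EAE. Cox6a1 remained the main form in every library. Cox6a2 and Cox4i2 reached the filter's minimum only in libraries other than WT, so they could be tested only because they were higher there.

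Cox6a2 lies at chr7:128205435-128206387 on the minus strand (GENCODE M21, GRCm38), inside the span of Itgad on the plus strand, with which it shares 70 of its 680 exon bases. Itgad encodes an integrin alpha chain of myeloid cells, and whether the authors' counting used strand is not given, so reads on the shared bases, or from unspliced Itgad RNA across Cox6a2, cannot be told apart from those of Cox6a2. Itgad stood at 19.6 and 27.2 CPM in WT, at 249.02 and 313 in KO and at 228 and 234 in KO EAE (log2 change KO against WT 3.58 ± 0.19, adjusted p = 0.000126). Itgax, the integrin gene next to it, changed by 4.24 ± 0.21. Cox6a2 therefore rose beside Itgad and the macrophage list given above, whose part in its rise was not tested. Of 6 tested muscle genes Tnni2 rose (4.63 ± 0.45), from 0.125 and 0.122 to 2.95 and 3.55 CPM, while Tnnt3 of the same list measured 6.19 and 6.002 CPM in the WT pair, 3.12 and 2.32 CPM in the KO pair (-1.16 ± 0.30, adjusted p = 0.0576). Ckm and Mb were at 0 to 0.321 CPM in all 6 libraries. The muscle list summed to 34.2 to 35.3 CPM in WT, 36.7 to 49.9 in KO and 33.1 to 45.2 in KO EAE. Of 10 genes of plasmacytoid dendritic cells 2 rose, Tcf4 and Irf8, with sums of 367 to 398, 444 to 489 and 390 to 427 CPM. Of these 10 genes, 8 had a log2 change above 0 and 2 below. The gap between KO 1 and KO 2 varied over the list: Siglech, a surface marker, had 3.35 against 22.5 CPM, Tcf4 31.1 against 41.7, Irf8 137 against 144. Siglech measured 0.313 and 0.551 CPM for the WT pair, 0.385 and 2.70 for the KO EAE pair. Pacsin1 was lower with the KO label, at 103 and 95.9 CPM beside 146 and 127 for the WT pair. Any part of plasmacytoid dendritic cells in the rise of Cox6a2 was not tested.

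Cox7a2l was the abundant gene among the 3. It encodes a relative of subunit VIIa that joins complexes III and IV into supercomplexes. Its level was 114 and 116 CPM in WT, 237 and 297 in KO and 109.9 and 108 in KO EAE. Both KO libraries lay above the other 4, and the KO EAE pair lay just below WT. The log2 change was 1.21 ± 0.11 for KO against WT (adjusted p = 0.00125) and -0.08 for KO EAE against WT (adjusted p = 0.698). Its paralogues were not called: Cox7a2, the widely used form, measured 34.97 and 31.0 CPM in the WT pair, 29.4 and 33.2 CPM in the KO pair (-0.08 ± 0.14, adjusted p = 0.751), and the muscle form Cox7a1 at 1.25 and 0.980 against 1.59 and 0.682 CPM (0.04 ± 0.52, adjusted p = 0.968). Cox7a2l lies at chr17:83501918-83517330 on the minus strand (GENCODE M21), overlaps no other annotated gene, and has 1 copy of at least 95% identity over at least 150 bases. Its neighbours Eml4 and Mta3 changed by 0.03 and -0.11 (adjusted p = 0.837 and 0.428), and Pkdcc, further away, rose by 2.73 ± 0.34 (adjusted p = 0.00416), from 2.002 and 1.53 to 13.6 and 9.83 CPM. The macrophage markers summed to 206 to 238 CPM in WT, 1545 to 1910 in KO and 1386 to 1620 in KO EAE. Their part in the level of Cox7a2l was not tested.

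Cox4i2, the form of subunit IV that is raised by low oxygen in lung and other tissues, was the weakest of the 3 calls. It stood at 0.438 and 0.367 CPM in WT (7 and 6 reads), 2.44 and 1.36 in KO (43 and 20 reads) and 1.16 in both KO EAE libraries (18 reads each). Both KO libraries were above WT, and they differed from each other by more than the WT pair did. The log2 change was 2.23 ± 0.47 (adjusted p = 0.0289), and leaving out any 1 of the 4 WT and KO libraries ended the call (adjusted p from 0.0601 to 0.191) while the log2 change stayed between 1.746 and 2.58. In these 4 fits 846 to 917 of all genes were called, against 1873 with all libraries. Its widely used partner Cox4i1 measured 68.7 and 69.8 CPM in the WT pair, 64.2 and 73.1 CPM in the KO pair (-0.01 ± 0.10, adjusted p = 0.949). In a list of 10 genes of the hypoxia response, 2 rose (Epas1 by 1.60 and Car9 by 1.70) and 2 fell (Vegfa -2.55 and Slc2a1 -0.75).

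**Figure D3:**
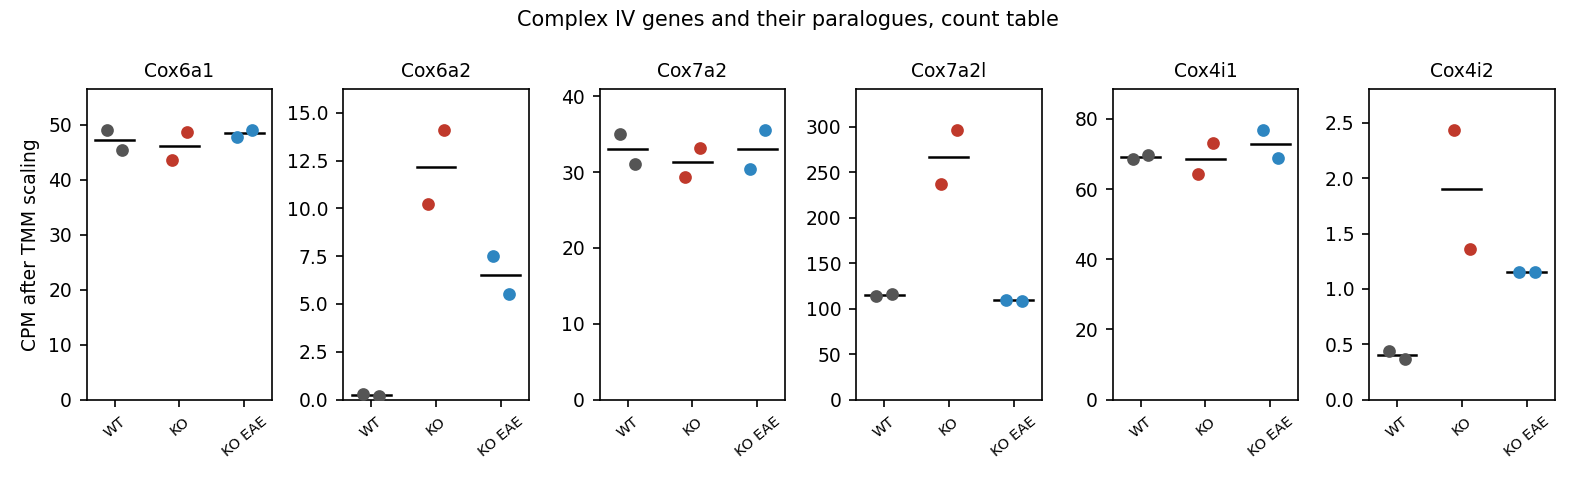
CPM after TMM scaling in each library (points) and group mean (bar) for Cox6a2, Cox7a2l and Cox4i2, each beside its widely used paralogue; each panel has its own axis from 0. Cox6a1, Cox7a2 and Cox4i1 lie level across the groups, while the 3 called genes are highest in KO, and Cox7a2l alone returns to 109.9 and 108 CPM in KO EAE.

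The other complex IV pairs were level or barely detected. Cox6b1 averaged 37.8 ± 1.88 CPM (SD, n = 2) in WT and 35.6 ± 1.90 in KO, and its testis form Cox6b2 1.33 ± 0.0639 and 1.11 ± 0.451. Cox7b averaged 35.7 ± 1.02 and 34.4 ± 3.03, Cox8a 49.0 ± 4.38 and 51.7 ± 8.12, and Ndufa4, now placed in complex IV, 36.7 ± 0.773 and 37.2 ± 2.72. Cox5b, the lowest of the widely used complex IV genes, changed by -0.19 ± 0.11 (adjusted p = 0.300). No adjusted p among these was under 0.300.

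Among genes of the other complexes, the nearest to a call in KO was Sdhaf1, which helps to insert iron-sulfur clusters into complex II. It stood at 61.2 and 59.0 CPM in WT, 47.3 and 44.6 in KO and 49.7 and 41.5 in KO EAE, so that all 4 KO and KO EAE libraries were below WT. Its log2 change was -0.39 ± 0.11 (adjusted p = 0.0731) for KO and -0.40 ± 0.11 (adjusted p = 0.0805) for KO EAE against WT. For KO against WT it passed the test when only these 2 groups were fitted (adjusted p = 0.0233) or without either KO EAE library (0.0222 and 0.0218). In complex I the assembly factor Ndufaf1 was the highest at 0.31 ± 0.13 (adjusted p = 0.192) and the accessory subunit Ndufa6 the lowest at -0.30 ± 0.15 (adjusted p = 0.251). Sdhc, a membrane anchor of complex II, had 63.0 and 60.4 CPM in the WT pair, 66.8 and 73.1 CPM in the KO pair (0.18 ± 0.08, adjusted p = 0.216). In complex III the ends were Uqcrb at 0.15 and Uqcrh, the hinge protein, at -0.12, and in complex V Atp5k at 0.04 and Atp5g2 at -0.23. Atp5o, of the peripheral stalk, had the smallest p of complex V (-0.14 ± 0.08, adjusted p = 0.306).

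Atp5g2 differed by library rather than by group. It is 1 of 3 genes that encode the same c subunit of the complex V rotor behind different targeting peptides. It stood at 56.9 CPM in WT 1 and 167 in WT 2, at 48.9 in KO 1 and 142 in KO 2, and at 53.1 and 53.6 in the KO EAE libraries. Thus 1 WT and 1 KO library were high and the other 4 were alike. Atp5g1 and Atp5g3 showed no such split, at 63.7 to 74.5 and 59.4 to 67.5 CPM over the 6 libraries.

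In KO EAE against KO, none of the 91 genes was called, and across all genes the test called 0.0137%. Of the 91, 3 had an unadjusted p under 0.05 (Cox7a2l, Cox6a2 and Ndufb11), and DESeq2 called 1, Cox7a2l, beside 1.24% of all genes with an adjusted p from DESeq2. Cox7a2l had the lowest value, -1.29 ± 0.11 (adjusted p = 0.115), with 237 and 297 CPM in KO and 109.9 and 108 in KO EAE. The adjusted p was 1.03e-16 by DESeq2, 0.0282 without the filter on low counts and 0.0365 without KO EAE replicate 1, and it stayed above 0.05 in the other alternatives run. Cox6a2 had -0.90 ± 0.31 (adjusted p = 0.509) and Cox4i2 -0.72 ± 0.42 (adjusted p = 0.601). Ndufb11 stood at 52.6 CPM in both KO libraries and 59.7 and 60.5 in KO EAE (0.19 ± 0.07, adjusted p = 0.521). The ends or smallest p of the other complexes were Ndufs3 of complex I at -0.18, Sdhd at 0.12 and Sdhaf2 at -0.03 of complex II, Uqcrfs1 at 0.14 and Uqcrb at -0.06 of complex III, Cox5b at 0.19, and Atp5l at 0.16 and Atp5g2 at -0.84 of complex V.

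Most members had a slightly higher value in KO EAE than in KO, 67 of the 91, with a median log2 change of 0.07 beside -0.00 over all genes. The groups did not overlap for 23 genes higher in KO EAE and 8 lower, beside 17% and 21.3% of all genes (38.3% in either direction). The size of this lean depended on the KO library used: KO replicate 2 was higher than KO replicate 1 for 75 of the 91 genes, and leaving out KO replicate 2 gave a median of 0.14, leaving out KO replicate 1 one of 0.00. In KO EAE against WT, a comparison in which genotype and disease both differ, 1 of the 91 genes was called, Cox6a2 (4.67 ± 0.43, adjusted p = 0.00145), beside 9.36% of all genes, 7.41% as higher and 1.95% as lower. The groups did not overlap for 21 genes higher and 15 lower in KO EAE, beside 29.9% and 30.7% of all genes (60.6% in either direction). Cox4i2 had 1.505 ± 0.48 (adjusted p = 0.115). Ndufaf4, an assembly factor of complex I, had the smallest p of its complex (-0.23 ± 0.12, adjusted p = 0.295), and Sdhaf1 and Atp5g2 (-1.07 ± 0.62, adjusted p = 0.329) those of complexes II and V. The 3 comparisons share libraries and are not independent.

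The normalized table gave a different picture of the same contrast. Its recovered reads totalled 16884434 and 19410133 in the WT pair and 25335011 and 24065561 in the KO pair. Read totals thus differed with group there, and their part in the changes below was not tested. Among 85 genes tested with limma on log2(value + 1), none was called at an adjusted p of 0.05, where 0.181% of 12149 genes were (0.14% higher and 0.0412% lower), and edgeR on the reads recovered from the table also called none of 87, with 12 of 12253 genes called. Of the 85, 73 had a higher value in KO, the median log2 change was 0.33 beside 0.00 over all genes, and 36 had an unadjusted p under 0.05, as did 1592 of the 12149. The groups did not overlap for 62 genes higher in KO and 4 lower, beside 23.3% and 22.4% of all genes (45.7% in either direction). The medians were 0.46 in complex III, 0.44 in complex IV, 0.32 in complex I, 0.30 in complex V and 0.19 in complex II. In the authors' deposited table of fold changes, made from the same signal, 6 of 85 members had an adjusted p under 0.05, beside 3.36% of all genes, and 73 of 85 were positive.

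The 6 genes called in the authors' deposited table, all positive there, were Uqcrb, Cox7a2, Atp5c1, Atp5f1, Uqcr10 and Cox6c. Uqcrb, a small subunit of complex III, had a normalized signal of 1337 and 1283 in WT and 2077 and 2114 in KO (log2 change 0.68 ± 0.14, adjusted p = 0.125, and 0.00812 in the authors' deposited table). Uqcr10 had 1037 and 837 against 1417 and 1668, Cox7a2 1361 and 1089 against 1977 and 1980, and Cox6c 1696 and 1606 against 2339 and 2476. In each of these the lowest KO library was above the highest WT library. The change was 0.46 ± 0.12 for Atp5f1, the b subunit of complex V, and 0.43 ± 0.11 for Atp5c1, its gamma subunit. All 28 tested accessory subunits of complex I, all 5 of complex III and all 11 widely used genes of complex IV had values above 0. Other genes did not share this order. Sdha, the flavoprotein of complex II, had 11701 and 12001 in WT and 10824 and 11333 in KO, so that both KO libraries were below both WT libraries. The groups overlapped for the beta and alpha subunits of complex V, with Atp5b at 24494 and 24010 against 26562 and 23965 and Atp5a1 at 19551 and 18804 against 19522 and 18479.

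**Figure D4:**
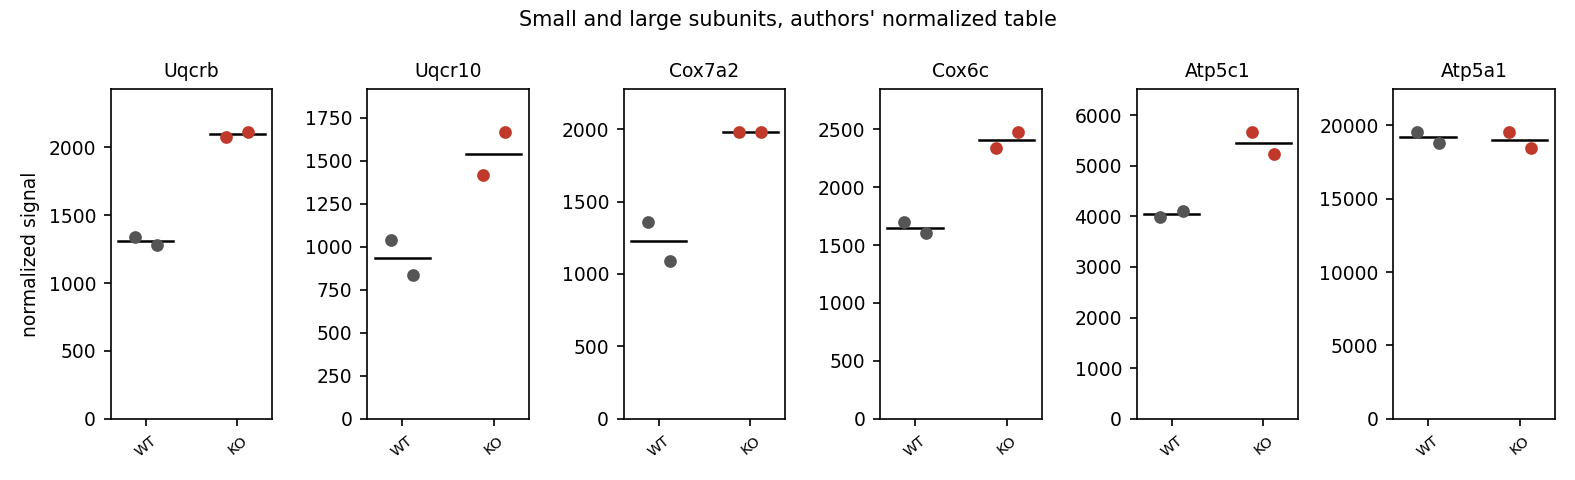
Normalized signal in the 2 WT and 2 KO libraries (points) and group mean (bar) for 5 of the genes called in the authors' deposited table and for Atp5a1; each panel has its own axis from 0. KO lies above WT without overlap in all but Atp5a1, where the groups overlap.

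Exon length moved with the change in the normalized table. Members were short, with a median of 1772.5 exon bases against 4322 for all genes tested in the count table. Among genes that are no members, the median log2 change for KO in the normalized table was 0.29 at 500 to 1000 exon bases, 0.21 at 1000 to 1500, 0.15 at 1500 to 2000, 0.05 at 2000 to 3000, -0.00 at 3000 to 5000 and -0.05 above. Members of the same lengths had 0.34, 0.41, 0.32, 0.24, 0.19 and 0.29, with 5 to 18 genes each. The member median was thus the higher one in each of these classes, and the part of length in it was not tested. In the count table other genes of these classes had medians from -0.03 to 0.02. Mitochondrial ribosomal protein genes, which are short as well, had a median of 0.27 in the normalized table, with 60 of 76 above 0 and none called. They too serve mitochondria, so they cannot separate length from a change shared by mitochondrial genes, which was not tested.

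**Figure D5:**
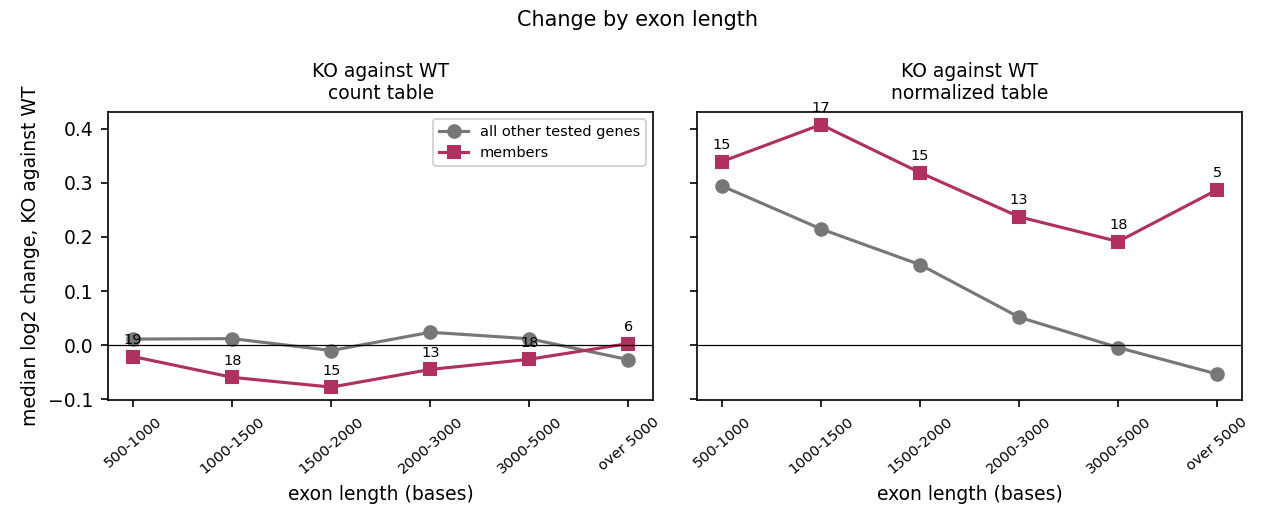
Median log2 change for KO against WT by exon length for the members (squares, with the number of genes) and all other tested genes (circles), in each table; classes with fewer than 5 members are left out. The lines lie near 0 in the count table, while in the normalized table other genes fall from 0.29 to -0.05 and members lie above them in each class.

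The 3 genes called in the count table were not called in the normalized one, where Cox6a2 and Cox4i2 did not pass the filter on low values. Cox7a2l had a signal of 1452 and 1230 in WT and 1293 and 1266 in KO (-0.06 ± 0.16, adjusted p = 0.896). Reads recovered for Cox6a2 were 0 and 13 in WT and 13 and 6 in KO, and Cox4i2 had 0, 3, 4 and 1 in the same order. For Itgad, 287 and 540 reads were recovered in WT and 1454 and 1654 in KO (log2 change 1.501 ± 0.26, adjusted p = 0.0832), and the macrophage list summed to 314 to 483 CPM in WT and 945 to 1039 in KO, with 2 of 9 genes called. In that table both KO libraries exceeded both WT libraries for Itgad and the macrophage sum. Cox6a2 was tested there only with edgeR on the recovered reads, at a log2 change of 0.16 ± 1.81 (adjusted p = 0.983). Any link of Cox7a2l or Cox6a2 to the macrophage signal was not tested. The tables also placed the genes at different levels: members were at a median of 0.75 log2 units higher in the recovered reads than in the count table, against -0.42 for all 10947 genes compared. Atp5g2 stood at 10.1 CPM in the recovered reads and 104 in the count table, Atp5l at 4.91 and 114, and Cox7a2l at 62.4 and 191. For Atp5l the annotation holds 9 copies of at least 95% identity, and 22 of 95 members have at least 1. Atp5g2 has 0 such copies. Between recovered reads and count table, Uqcrb with 3 copies differed by 1.16 log2 units and Ndufab1 with 2 by -1.25. The part of copies in these differences was not tested. Since the tables were scaled apart, the difference between them was not tested.

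Gene lists around the pathway were mostly level in the count table for KO against WT. edgeR called none of 36 other respiratory chain and assembly genes (median 0.01, 3 with an unadjusted p under 0.05), none of 77 mitochondrial ribosomal protein genes (median -0.05, 4 such genes), and none of 12 uncoupling, inhibitor and antioxidant genes (median 0.06, 1 such gene). Of 17 regulators of mitochondrial genes, Nrf1, which encodes NRF1, fell from 136 CPM in both WT libraries to 101 and 112 (-0.35 ± 0.09, adjusted p = 0.0496). Of 17 genes of the tricarboxylic acid cycle, Idh2, the mitochondrial NADP-linked isocitrate dehydrogenase, rose from 53.5 and 49.5 to 69.6 and 74.8 CPM (0.49 ± 0.09, adjusted p = 0.0160). Leaving out any 1 of the 4 WT and KO libraries ended both calls (adjusted p from 0.0978 to 0.276 for Nrf1 and from 0.0639 to 0.143 for Idh2), with log2 changes of -0.42 to -0.28 for Nrf1 and 0.43 to 0.56 for Idh2, in the same fits with fewer calls over all genes. In the normalized table Nrf1 had 0.08 (adjusted p = 0.853) and Idh2 0.28 (adjusted p = 0.457).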

How the data were processed

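Per the labels' protocols, sorted Tregs gave NEBNext Ultra II RNA libraries that were run on a NextSeq500. HISAT2, HTSeq and DESeq2 with the mm10 genome are the tools named per the submitters' processing notes. No version, annotation or strand setting was given there. The authors deposited a table of whole-number counts for 6 libraries. The authors also deposited a normalized signal for 2 WT and 2 KO libraries, named for DESeq2, whose steps are those of reads divided by 1 factor per library. A table of the authors' own comparison, likewise named for DESeq2, gives log2 fold changes, a test score and p-values. Rows named by a number or date (25 and 27, at most 0.217% and 0.284% of a library) were left out. All values above 0 of the normalized signal were whole multiples of 1 read (100% in each library, tolerance 0.02 reads), so reads were recovered, and edgeR called 12 of 12253 genes on them.

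Counts were tested with edgeR 4.0.16 in R 4.3.3 (filterByExpr with a minimum count of 10 and total of 15, TMM, quasi-likelihood test, 1 coefficient per group over 6 libraries, 3 residual degrees of freedom), with Benjamini-Hochberg adjustment over 14548 genes and a threshold of 0.05. SEs are approximate, the log2 change divided by the root of F. Normalized signal was tested with limma 3.58.1 (trend, pseudocount 1, mean of at least 10), whose fold changes are on the log2(value + 1) scale and understate changes of low genes. DESeq2 1.42.0, other scalings and filters, a replicate block and leaving out each library were alternatives. The methods were tested on simulated data. Of the members, 95 matched GENCODE M21. Named genes were every called member, the paralogue pairs, and per complex the highest and lowest changes (mean of at least 5 CPM), the smallest p and the highest level per kilobase. The genes named from the normalized table beyond these were chosen after their values were seen. The members and lists were chosen with earlier results of these data known. Replicates differed by more than sampling noise in every group.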

Additional observations from a re-analysis of the deposited data

How the results depend on the processing

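For KO against WT in the count table, Cox6a2 and Cox7a2l kept their direction and call under each alternative run, with adjusted p from 1.29e-17 to 0.00801 and from 2.74e-16 to 0.0130. The number of members called was 3 with DESeq2, other scalings and no filter, 2 to 4 when a library was left out (4 without either KO EAE library, through Sdhaf1, and 2 without any WT or KO library, through Cox4i2), and 0 among structural subunits only, an alternative chosen after seeing the data. The median was 0.0161 with library totals and no TMM and -0.0941 to 0.0136 when a library was left out. For KO EAE against KO, 1 member was called with DESeq2 and 1 without the low-count filter, and 0 to 1 when a library was left out, with medians from 0.00173 to 0.137; without KO EAE replicate 1, 313 of all genes were called. For KO EAE against WT, 1 to 2 members were called when a library was left out, 2 without KO EAE replicate 1 (Sdhaf1, -0.54, adjusted p = 0.0152), with medians from -0.00727 to 0.0820, and 0 among structural subunits only. In the normalized table no member was called (0) under each alternative run, and the median ranged from 0.25 to 0.41 when a library was left out. Leave-out fits with 1 library in a group assume that it varies like the others. Same-numbered replicates did not deviate together (correlations of 0.03 for WT with KO, 0.21 for KO with KO EAE, -0.17 for WT with KO EAE, and 0.00 in the normalized table), so the numbers were not taken as pairs. A replicate block gave 3, 0 and 1 called members in the count table, with medians of -0.04, 0.08 and 0.02, and 0 with a median of 0.33 in the normalized table, and it changed no call. With 2 libraries a group, small changes of a shared sign could not be separated from differences between single libraries.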

Other observations

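Markers of some further cell types in the count table for KO against WT are given as values. Of 6 genes of conventional dendritic cells 2 rose, Itgax and Clec9a, and the list summed to 9.32 to 12.2 CPM in WT, 105 to 148 in KO and 68.9 to 85.9 in KO EAE. Itgax alone made up most of these sums, with 5.005 and 6.31 CPM in the WT pair, 92.1 and 123 CPM in the KO pair. Of 5 natural killer cell genes 4 rose, among them Fcer1g (2.61 ± 0.11) and Tyrobp (2.34 ± 0.12), with sums of 38.3 to 39.6, 186 to 194 and 163 to 183 CPM. In the KO pair Fcer1g stood at 67.1 and 68.5 CPM and Tyrobp at 46.4 and 51.4. Ncr1 of this list measured 3.07 and 1.96 CPM in WT, 8.74 and 6.35 in KO and 1.99 and 3.41 in KO EAE. Of 7 B cell genes Cd22 rose (2.05 ± 0.35), with sums of 42.1 to 46.1, 82.9 to 127 and 72.9 to 144 CPM. Of 6 stromal and endothelial genes Pdgfrb and Igfbp7 rose, with sums of 198 to 210, 211 to 218 and 199 to 202 CPM.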
